A study of Mus musculus with 3 samples.

Results

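The genes that encode the proteins of the cytoplasmic ribosome were examined for 5-hydroxymethylcytosine (5hmC) in mouse cerebellum. They were taken as the protein-coding RefSeq genes of GRCm38 whose symbols are Rpl or Rps followed by a number, together with Rplp0, Rplp1, Rplp2 and Rpsa, and without the Rps6k kinases. The rule found 91 of 21887 protein-coding genes and used no measured value. Of these, 46 are the standard genes of the large subunit and 31 those of the small subunit. The other 14 carry symbols of paralogs, retrocopies and related genes, such as Rpl3l, Rpl10l, Rpl39l and Rps27l, and 2 of them, Rps19bp1 and Rps23rg1, are not known as ribosomal subunits but meet the symbol rule.

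The study holds 3 libraries of genomic DNA from cerebellum, with 1 library per group. They are DDD-seq (double-stranded DNA deamination sequencing) of mice under chronic sleep deprivation, ACE-seq (an APOBEC-coupled method) of normal control mice, and DDD-seq of normal control mice. In DDD-seq, 5hmC is shielded by a glucose and the deaminase SsdAcat then converts the other cytosines, so that a cytosine still read as C counts as 5hmC. The same text is attached to the ACE-seq library, so how APOBEC was used in it is undescribed. Strain, age, sex, the number of animals and the length of the deprivation were not stated in the labels, and the headers of the DDD-seq columns end in "all", so several runs or animals may be pooled in them. With 1 library per group, no difference has a replicate check, no test was run, and every difference below compares libraries, not conditions.

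As background, each ribosome is built from a large subunit, which forms peptide bonds, and a small subunit, which reads the messenger RNA. Their protein genes are transcribed in every cell, are mostly short, and start in CpG-rich promoters with a run of pyrimidines at the first transcribed base, which places their translation under mTOR. The mark 5hmC is made from methylated cytosine by the TET enzymes and is abundant in neurons, where it lies mainly within gene bodies and is scarce at active CpG-rich promoters.

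The deposited table gives a fraction for each 10 kb bin, written here as a percent and called the level. The level of a gene is the mean over all bins it touches. With a median length of 3.175 kb, against 7.572 kb for the other protein-coding genes of 1 to 3 bins, a ribosomal protein gene usually fills only part of its bin, and its level describes the gene together with its immediate surroundings. Of the 91 genes, 61 lay in 1 bin, 29 in 2 and 1 in 3, and 63 shared a bin with some other protein-coding gene. The 91 genes fell in 120 different bins on 19 chromosomes. Members could share a bin, as Rps2 and Rpl3l did on chromosome 17. A standard error over bins is given only for genes of 3 or more bins. The number of reads behind a bin is unknown, so no interval could be set on a level.

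The promoters of 5 genes are printed because they span the family by level and by CpG content. They are RefSeq sequences of GRCm38.p6, each running from 250 bases before the start of transcription to 50 after it, in lower case with every CG in capitals. Rps6 (chr4:86857318-86857617, minus strand, 23 CG) and Rps10 (chr17:27635195-27635494, minus strand, 31 CG) belong to the 10 genes of highest level in the DDD-seq control. Rps26 (chr10:128626457-128626756, minus strand, 16 CG) and Rpl10 (chrX:74270566-74270865, plus strand, 17 CG) had the lowest levels there. Rpl32l (chr10:20208189-20208488, plus strand, 3 CG) had the second highest level with almost no CG.
Rps6: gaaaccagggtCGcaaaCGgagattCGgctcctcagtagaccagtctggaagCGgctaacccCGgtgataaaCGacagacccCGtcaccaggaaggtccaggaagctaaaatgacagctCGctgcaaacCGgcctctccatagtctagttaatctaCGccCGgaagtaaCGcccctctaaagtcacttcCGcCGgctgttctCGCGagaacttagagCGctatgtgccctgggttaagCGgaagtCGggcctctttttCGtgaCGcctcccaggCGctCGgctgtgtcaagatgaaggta
Rps10: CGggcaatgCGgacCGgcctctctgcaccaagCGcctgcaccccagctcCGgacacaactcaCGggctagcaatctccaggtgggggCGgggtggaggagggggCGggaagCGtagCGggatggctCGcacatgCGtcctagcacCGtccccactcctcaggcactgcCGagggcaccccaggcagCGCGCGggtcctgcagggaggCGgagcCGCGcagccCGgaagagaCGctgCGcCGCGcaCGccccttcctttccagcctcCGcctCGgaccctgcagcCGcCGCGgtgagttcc
Rps26: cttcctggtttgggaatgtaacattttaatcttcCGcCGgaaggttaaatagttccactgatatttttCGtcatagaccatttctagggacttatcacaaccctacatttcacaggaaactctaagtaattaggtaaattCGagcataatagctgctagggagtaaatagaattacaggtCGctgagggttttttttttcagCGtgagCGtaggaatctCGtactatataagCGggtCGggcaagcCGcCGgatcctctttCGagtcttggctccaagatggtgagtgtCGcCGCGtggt
Rpl10: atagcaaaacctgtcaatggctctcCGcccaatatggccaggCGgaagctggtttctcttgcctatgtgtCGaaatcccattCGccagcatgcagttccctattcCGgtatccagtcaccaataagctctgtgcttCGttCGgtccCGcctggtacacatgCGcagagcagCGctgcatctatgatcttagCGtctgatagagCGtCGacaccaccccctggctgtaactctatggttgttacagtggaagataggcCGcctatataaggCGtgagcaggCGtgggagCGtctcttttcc
Rpl32l: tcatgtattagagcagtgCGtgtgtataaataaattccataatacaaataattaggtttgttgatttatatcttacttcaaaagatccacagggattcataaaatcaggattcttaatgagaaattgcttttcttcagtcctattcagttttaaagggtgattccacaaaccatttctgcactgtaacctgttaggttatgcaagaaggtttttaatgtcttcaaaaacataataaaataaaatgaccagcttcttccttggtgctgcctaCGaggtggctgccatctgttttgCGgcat

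As a family the ribosomal protein genes carried a level of 5hmC close to that of other short genes, and lower than that of genes in general. Their median was 1.20% in the sleep-deprived library, 1.21% in the ACE-seq control and 1.22% in the DDD-seq control. Other protein-coding genes of 1 to 3 bins, 13027 in number, had medians of 1.22%, 1.20% and 1.23% in the same order of libraries. All other protein-coding genes, long ones included, had medians of 1.31%, 1.29% and 1.33%. The family median minus that of the short genes was -0.0247, 0.00759 and -0.0126 percentage points, and minus that of all genes -0.116, -0.0848 and -0.107. Below the median of the short genes were 48 of 91 members in the sleep-deprived library, 42 in the ACE-seq control and 49 in the DDD-seq control, where the short genes themselves are at 50% by construction.

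The tails of the family were narrower than those of other short genes. The 5th and 95th percentiles of the family were 0.920% and 1.70% in the sleep-deprived library, against 0.655% and 1.99% for other short genes. In the ACE-seq control they were 0.863% and 1.94%, against 0.544% and 2.05%. In the DDD-seq control they were 0.822% and 1.904%, against 0.588% and 2.05%. The low tail of the family was thus the higher in each library. The quartiles were close, and in the ACE-seq control those of the family were the wider apart, at 1.004% and 1.45%, against 0.999% and 1.43% for other short genes. No member was listed at 0 in any library, whereas 2.98% of the other short genes were at 0 in at least 1. Between the 10th and 90th percentile of the short genes in all 3 libraries lay 71 of 91 members, beside 65% of the short genes. Below the 10th percentile in all 3 lay 0 members, beside 1.95%, and above the 90th in all 3 lay 2 members, Rpl21 and Rpl32l, beside 4.26%. In at least 1 library, 8 members lay below the 10th percentile (background 20.3%) and 12 above the 90th (background 17.9%).

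**Figure D1:**
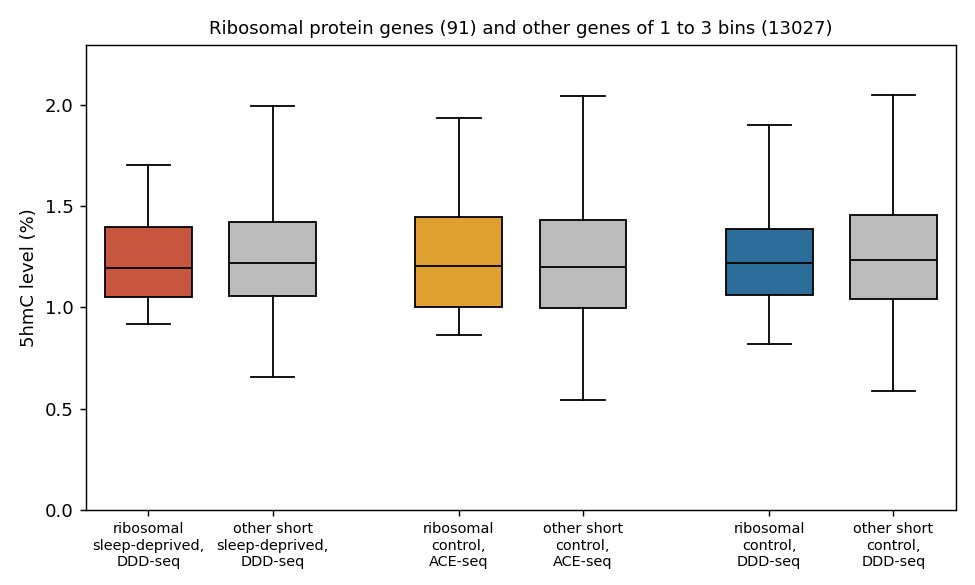
Level of 5hmC (percent) of the 91 ribosomal protein genes and the 13027 other protein-coding genes of 1 to 3 bins in each library. Lines are medians, boxes quartiles and whiskers the 5th and 95th percentiles over genes; the medians lie between 1.20% and 1.23% in all 6 boxes, and the lower whisker of the ribosomal protein genes ends higher in each library.

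The difference in the low tail was not seen in every class of CG content in the promoter, the 300 bases around the start. With 20 or more CG, the 5th percentile was 0.967%, 0.873% and 0.937% over 39 members and 0.982%, 0.882% and 0.958% over other short genes, in the sleep-deprived, ACE-seq control and DDD-seq control libraries. With 10 to 19 CG, it was 0.869% under sleep deprivation and 0.692% in the DDD-seq control over 24 members, against 0.929% and 0.912% over other short genes, while in the ACE-seq control it was 0.908% over members and 0.849% over other short genes. Among other short genes with at most 4 CG in the promoter, the lower quartile was 0.884%, 0.804% and 0.844% in the same order, and only 4 of the 70 members with a matched promoter had so few CG. The 5th percentile over 24 or 39 members rests on few genes, and the 21 members without a matched promoter are in no class. Whether CG content has a part in the low tail of the family was not tested.

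The genes of the large subunit had medians of 1.16% in the sleep-deprived library, 1.24% in the ACE-seq control and 1.19% in the DDD-seq control. Those of the small subunit had medians of 1.251%, 1.19% and 1.33% in the same order. By medians the small subunit was the higher in both DDD-seq libraries and the lower in ACE-seq. By means it was the higher in all 3, with 1.28%, 1.31% and 1.32% against 1.249%, 1.26% and 1.20% for the large subunit. The 14 other symbols had medians of 1.24%, 1.11% and 1.23%.

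Among the large subunit genes, Rpl21 stood highest, with 2.39% in the sleep-deprived library, 2.51% in the ACE-seq control and 2.16% in the DDD-seq control. Rpl21 (chromosome 5, 146832890 to 146837032 in GRCm38) is a protein of the large subunit whose gene hosts 2 small nucleolar RNAs and shares its bin with no other protein-coding gene. Its level belonged to that bin alone. The bin before it had 1.06%, 1.15% and 1.16%, and the bin after it 1.28%, 1.33% and 1.37%, in the sleep-deprived, ACE-seq control and DDD-seq control libraries. In all 3 libraries the bin with Rpl21 was higher than every bin within 40 kb on either side. The next bins that exceeded it lay 50 and 60 kb before it, at up to 4.13% in the sleep-deprived library, 3.42% in the ACE-seq control and 3.78% in the DDD-seq control.

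Rpl15 and Rpl5 followed. Rpl15, a core protein of the large subunit, had 1.91% in the sleep-deprived library, 1.96% in the ACE-seq control and 1.72% in the DDD-seq control. Rpl5, which binds the 5S ribosomal RNA together with Rpl11 and restrains Mdm2, had 1.67%, 1.80% and 1.59% in that order. Both were in the upper part of the family in all 3 libraries, but their surroundings within 100 kb were just as high, at 1.89%, 1.89% and 1.96% around Rpl15 and 1.88%, 1.76% and 1.81% around Rpl5. In this they differed from Rpl21.

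The lowest large subunit gene in the DDD-seq control was Rpl10, a protein that joins late and completes the peptidyl transferase center. Rpl10 (chromosome X, 74270816 to 74273135 in GRCm38) had 1.21% in the sleep-deprived library, 0.913% in the ACE-seq control and 0.654% in the DDD-seq control. Rpl8, another protein next to the catalytic center, had 1.15%, 0.906% and 0.697%. Rpl14 had 1.39%, 0.913% and 0.819%. All 3 genes were low in both control libraries and near or above the family median in the sleep-deprived one. The 5 genes Rpl36a, Rpl35, Rpl26, Rpl7a and Rpl13a stayed at or below 1.16% in every library.

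The stalk of the large subunit, which recruits translation factors, is made of Rplp0, Rplp1 and Rplp2. Rplp0, its base, had 1.251% in the sleep-deprived library, 1.09% in the ACE-seq control and 1.34% in the DDD-seq control. Rplp1 had 1.01%, 0.965% and 0.770%, and Rplp2 had 1.02%, 0.937% and 1.30%. Rplp0 was the highest of the 3 in every library.

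Among the small subunit genes, Rps6 had 1.63% in the sleep-deprived library, 1.82% in the ACE-seq control and 2.12% in the DDD-seq control. Its protein is the substrate of the S6 kinases downstream of mTOR, and its phosphorylated form is a common readout of neuronal activity. In both DDD-seq libraries the level of Rps6 lay between those of the bins next to it, and in the ACE-seq control above both. The bin before it had 2.40%, 1.44% and 2.40% and the bin after it 0.632%, 0.949% and 0.714%, in the sleep-deprived, ACE-seq control and DDD-seq control libraries.

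Rps15a had 1.75% in the sleep-deprived library, 1.64% in the ACE-seq control and 2.0% in the DDD-seq control. Rps10, a protein of the head of the small subunit that is mutated in human Diamond-Blackfan anaemia, had 1.52%, 1.63% and 1.87%. Rps13 had 1.58%, 1.95% and 1.73%. These 3 genes, like Rps6, lay in the upper part of the family in each library. Their flanks within 100 kb were also high, at 1.64% to 1.93% in the sleep-deprived library, 1.68% to 2.02% in the ACE-seq control and 1.72% to 2.06% in the DDD-seq control.

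At the lower end, Rps26, which contacts the messenger RNA at the exit channel and is another gene of Diamond-Blackfan anaemia, had 0.855% in the sleep-deprived library, 1.004% in the ACE-seq control and 0.633% in the DDD-seq control. The last value was the lowest of any member in any library. In the DDD-seq libraries Rps26 (chromosome 10, 128624529 to 128626506 in GRCm38) lay below both bins next to it. Its neighbouring bins had 1.29% and 1.22% under sleep deprivation and 1.21% and 1.20% in the DDD-seq control. Under sleep deprivation the bin 20 kb after it was as low, at 0.846%. In ACE-seq the neighbours had 1.02% and 1.15%, close to the bin of the gene. Rps9, Rps18, Rps2 and Rpsa were at 1.11% or less in every library. The 18 members that are known genes of Diamond-Blackfan anaemia, a red cell aplasia, had medians of 1.35%, 1.21% and 1.28% in the sleep-deprived, ACE-seq control and DDD-seq control libraries. These lay above the family median in both DDD-seq libraries and level with it in ACE-seq.

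**Figure D2:**
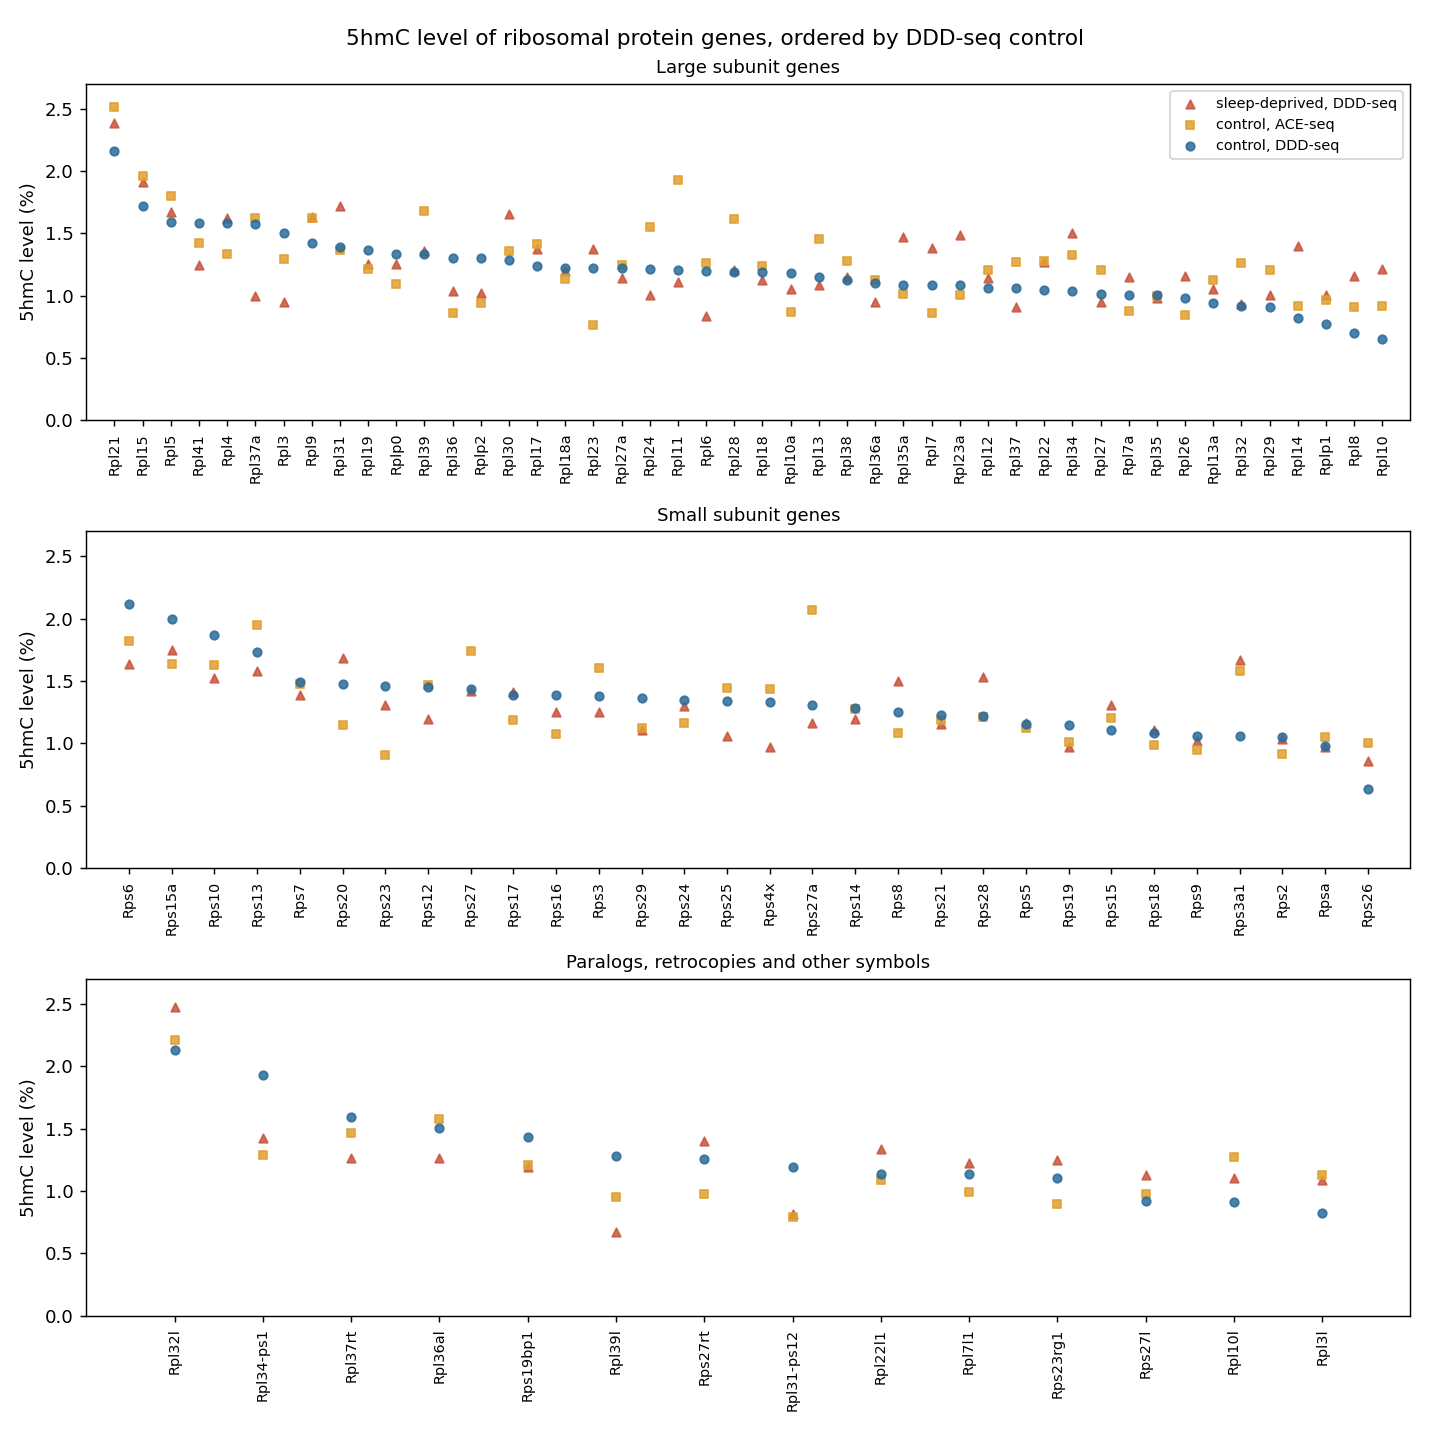
Level of 5hmC (percent) of the single genes in each library, by subunit and ordered by the DDD-seq control, with 1 gene not shown. Points are single libraries without error; Rpl21 and Rpl32l stand above 2.1% in all 3, Rps26 has the lowest value at 0.633%, and the other genes show the libraries in mixed order.

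The paralogs and retrocopies are genes with another symbol that encode variants of a standard protein. Rpl32l had 2.48% in the sleep-deprived library, 2.21% in the ACE-seq control and 2.13% in the DDD-seq control, and it lies inside Map7, a gene for a microtubule-binding protein. Over its 15 bins, that of Rpl32l included, Map7 had 1.999 ± 0.19%, 1.75 ± 0.15% and 1.84 ± 0.18% (SE over bins) in the same order. The bin before Rpl32l had 2.64%, 1.74% and 2.17%, and the bin after it 2.09%, 1.93% and 2.53%. The high level was thus shared with the adjacent bins of its host gene. Map7 was uneven, with 0.999%, 1.36% and 1.01% in its bin 60 kb after that of Rpl32l. The standard gene Rpl32 had 0.932%, 1.26% and 0.916%.

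Of 12 pairs of a variant and its standard gene, the variant was higher in all 3 libraries in 3 pairs (Rpl32l, Rpl36al and Rpl37rt), lower in all 3 in 4 (Rpl31-ps12, Rpl39l, Rps27l and Rps27rt) and mixed in 5. Rpl39l, a testis-enriched variant, had 0.675% in the sleep-deprived library, 0.954% in the ACE-seq control and 1.29% in the DDD-seq control, against 1.36%, 1.68% and 1.33% for Rpl39 on the X chromosome. Rpl3l, the variant of striated muscle, had 1.09%, 1.13% and 0.825%, against 0.947%, 1.29% and 1.50% for Rpl3. Rpl10l, a variant of male germ cells, had 1.11%, 1.27% and 0.910%, against 1.21%, 0.913% and 0.654% for Rpl10. Variants whose RNA is known from other tissues therefore lay neither all above nor all below their standard genes.

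Of the remaining other symbols, Rpl34-ps1 had 1.42% in the sleep-deprived library, 1.29% in the ACE-seq control and 1.94% in the DDD-seq control. Rps23rg1, the one gene of 3 bins, had 1.249 ± 0.015%, 0.896 ± 0.062% and 1.10 ± 0.083% (SE over bins) in that order. Rpl31-ps12 lies inside Spag6l and Rps27rt inside Osbpl10. Reads from near-identical copies may be divided between a gene and its retrocopies, and how the authors' alignment treated them was not stated in the labels.

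Members in gene-rich stretches had lower levels than members in gene-poor ones. Within 50 kb the members had a median of 4 other protein-coding genes (0 to 11), against 3 for other short genes. The 13 members with 0 to 1 neighbours had medians of 1.30% in the sleep-deprived library, 1.32% in the ACE-seq control and 1.29% in the DDD-seq control. The 17 members with 7 or more had 1.09%, 1.12% and 1.06%. Other short genes ran the same way over a smaller span, with 1.24%, 1.22% and 1.251% at 0 to 1 neighbours and 1.17%, 1.14% and 1.18% at 7 or more. Spearman's rho between neighbours and level over the 91 members was -0.25, -0.31 and -0.30, against -0.06, -0.07 and -0.06 over other short genes. Genes that share a bin or a neighbourhood are not independent in these values. Members of the crowded class include Rps9, Rps18, Rps2, Rpl13a, Rpl18 and Rplp2.

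Genes of 1 bin were also set side by side, so that length played a smaller part. The 30 such members with 0 to 3 neighbours had medians of 1.32% in the sleep-deprived library, 1.27% in the ACE-seq control and 1.31% in the DDD-seq control, against 1.15%, 1.13% and 1.16% for 2451 other genes. The 11 such members with 7 or more neighbours had 1.15%, 1.08% and 1.06%, against 1.15%, 1.13% and 1.16% for 665 other genes. The members were thus above the other genes in sparse regions in all 3 libraries, and at or below them in crowded ones. Of the other genes, 6.99%, 8.88% and 7.80% were at 0 in sparse regions and 0.451%, 0.602% and 0.602% in crowded ones, while no member was. The groups were not matched for CG either, and the cause of the pattern was not tested.

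**Figure D3:**
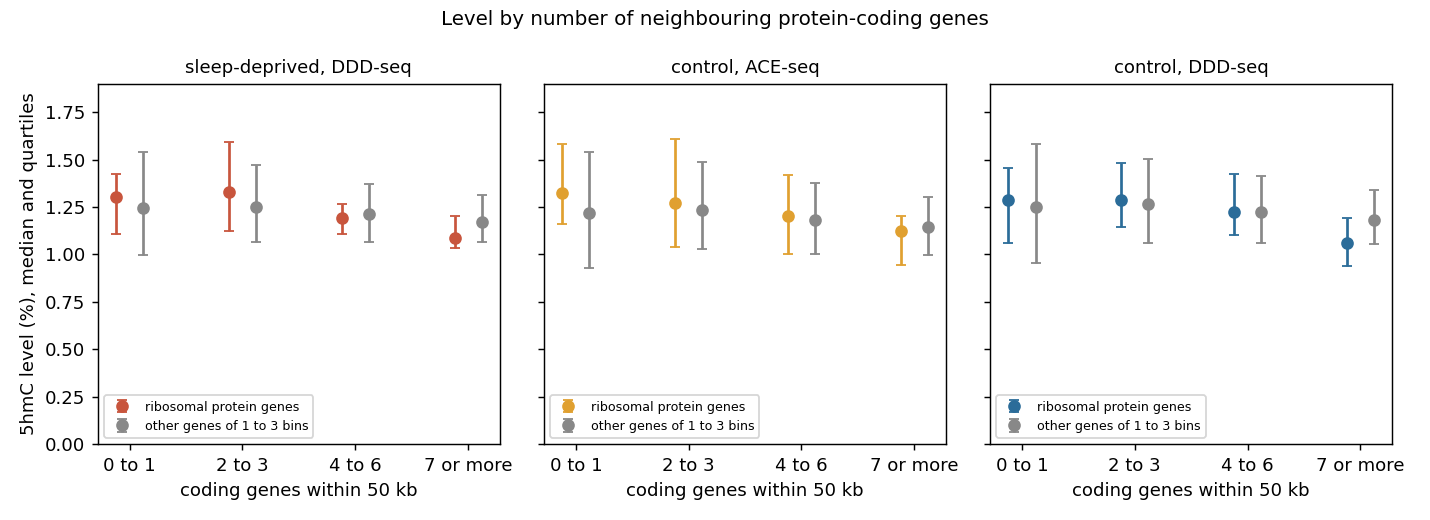
Level of 5hmC (percent) by the number of protein-coding genes within 50 kb, for the ribosomal protein genes (colored) and other genes of 1 to 3 bins (grey) in each library. Points are medians and bars quartiles over genes; the medians of the members lie between 1.27% and 1.33% at 0 to 1 and 2 to 3 neighbours and between 1.06% and 1.12% at 7 or more.

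Members were also compared with their flanks, the bins within 100 kb on either side. The flanks had medians of 1.33% in the sleep-deprived library, 1.30% in the ACE-seq control and 1.32% in the DDD-seq control. The gene minus its flank had a median of -0.115, -0.100 and -0.0998 percentage points over members, against -0.0824, -0.0691 and -0.0722 over other short genes. Below their flanks were 59 members (background 61.5%) in the sleep-deprived library, 54 (58.4%) in the ACE-seq control and 64 (59.4%) in the DDD-seq control, of 91 each. As shares these are 64.8%, 59.3% and 70.3%. The share was near the background in the sleep-deprived and ACE-seq libraries and above it in the DDD-seq control, with no test of the difference.

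**Figure D4:**
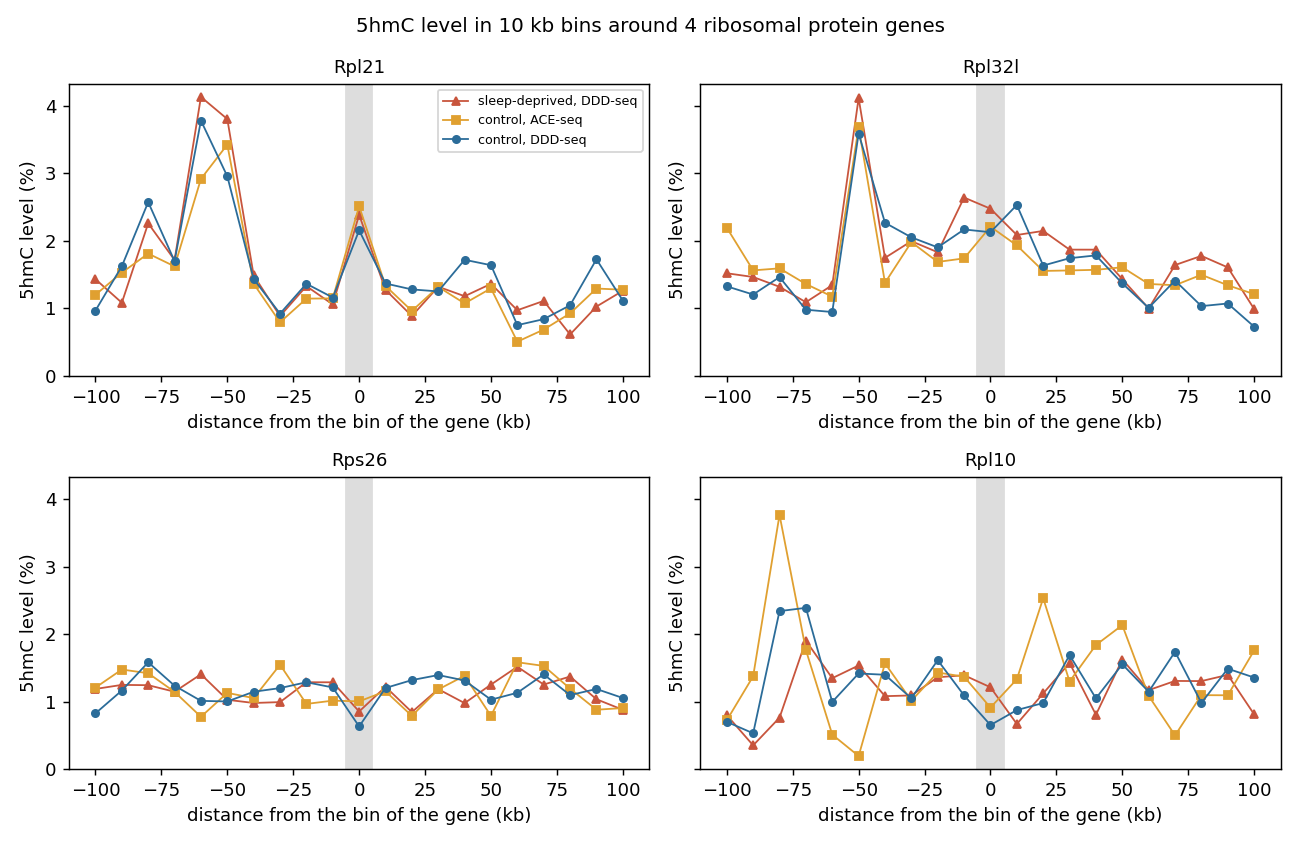
Level of 5hmC (percent) in 10 kb bins out to 100 kb around Rpl21, Rpl32l, Rps26 and Rpl10 in each library, with distance in kb along the chromosome from the bin of the gene (shaded). Rpl21 is a peak of 1 bin at 2.16% to 2.51% in all 3 libraries, Rpl32l lies within Map7, whose bins are uneven, and Rps26 and Rpl10 are lowest in the DDD-seq control.

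Promoter sequences were matched by gene identifier for 70 of the 91 members. Their 300 bases held a median of 21 CG (2 to 42), against 8 (0 to 63) in 10587 other short genes. The letters CCGGAAG, a core of ETS factor sites, were found on either strand in 25 members (35.7%), against 11.6% of the other promoters. A run of 5 pyrimidines starting with C within 5 bases before to 10 after the start, as in the terminal oligopyrimidine messengers, was found in 31 (44.3%), against 17.9%. The letters AAGATGGC, a core of YY1 sites, were in 6 (8.57%), against 3.05%, and TATAAA in 9 (12.9%), against 16.7%, also on either strand. A match describes the letters in this window and not the binding of a factor. The other promoters were not matched for CG, and CCGGAAG itself contains CG.

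The level of the matched members, few of which had a low CpG content, showed little relation to it. That of other short genes was higher where CG were many. Other short genes with at most 4 CG had medians of 1.13% in the sleep-deprived library, 1.09% in the ACE-seq control and 1.13% in the DDD-seq control, and those with 20 or more had 1.29%, 1.27% and 1.30%. The 39 members with 20 or more had 1.19%, 1.20% and 1.18%. Spearman's rho between the number of CG and the level was 0.10, -0.04 and -0.05 over 70 members, against 0.27, 0.26 and 0.25 over other short genes. These rhos cover unlike ranges, since only 4 members had 0 to 4 CG and 3 had 5 to 9. Among other short genes the DDD-seq control medians were 1.13% at 0 to 4 CG, 1.249% at 5 to 9 and 1.26% at 10 to 19. The largest step was thus at the low end, and a difference between members and others was not tested. The gap at 20 or more CG was smaller among genes of 1 bin, where the 26 members had 1.19%, 1.20% and 1.14% and the 581 others 1.23%, 1.22% and 1.23%. Of the printed promoters, Rps10 with 31 CG and Rpl32l with 3 were both high. They were chosen to span level and CG content, so they say nothing of a relation between them.

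Small nucleolar RNAs, which guide the modification of ribosomal RNA, are often carried in the introns of these genes, and 30 members held 59 of them. Hosts had medians of 1.20% in the sleep-deprived library, 1.255% in the ACE-seq control and 1.22% in the DDD-seq control, and the 61 members without them 1.20%, 1.20% and 1.21%. The 4 members on the X chromosome, Rpl10, Rps4x, Rpl39 and Rpl36a, had medians of 1.09%, 1.28% and 1.22%, and the 87 autosomal members 1.20%, 1.21% and 1.22%.

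The comparison of sleep-deprived with control cerebellum by DDD-seq asks whether the mark moves with sleep loss. Over the family the levels were close: 45 members were higher (background 47.8%) and 46 lower after deprivation, with a median difference of -0.00723 percentage points and a mean of 0.00161 ± 0.263 (SD over the 91 genes). Other short genes had a median difference of -0.00595. Past a ratio of 1.5-fold, 4 members were higher (4.40%) in the sleep-deprived library, where 6.86% of other short genes were, and 3 were lower (3.30%), where 6.92% were. Over all protein-coding genes, long ones included, the shares were 4.44% and 4.39%. The shares of members were thus below those of other short genes and near or below those of all genes. Past 2-fold there were 0 members, beside 2.93% higher and 2.5% lower.

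The 4 higher genes were Rpl10, Rpl14, Rpl8 and Rps3a1. Rpl10 had a ratio of 1.86, from the levels of 1.21% under sleep deprivation and 0.654% in the DDD-seq control given above. Rpl14 had a ratio of 1.70 and Rpl8 of 1.66. These 3 were among the 10 lowest members in the DDD-seq control, and their sleep-deprived levels of 1.15% to 1.39% lay between the quartiles of the family there, 1.05% and 1.40%. Rps3a1, a protein of the small subunit, had 1.66% under sleep deprivation and 1.06% in the DDD-seq control, a ratio of 1.57. Both of its bins ran this way, with 1.93% and 1.40% against 1.02% and 1.10%. The ACE-seq control had 1.58% for Rps3a1, close to the sleep-deprived value, and so the 2 control libraries differed about as much as the DDD-seq libraries did.

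The 3 lower genes were Rpl39l, Rpl3 and Rpl37a. Rpl39l had 0.675% under sleep deprivation and 1.29% in the DDD-seq control, a ratio of 0.525, with 0.954% in the ACE-seq control in between. Rpl3, which shapes the peptidyl transferase center, had 0.947% under sleep deprivation and 1.50% in the DDD-seq control, a ratio of 0.630. Both bins of Rpl3 were lower, with 0.810% and 1.08% against 1.52% and 1.49%. Rpl37a had 0.997% under sleep deprivation and 1.57% in the DDD-seq control, a ratio of 0.634. For Rpl37a the ACE-seq control stood with the DDD-seq control, at 1.62%, and for Rpl3 it was 1.29%. All 3 genes were lower in the sleep-deprived library than in either control.

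By subunit, 27 of 46 large subunit genes were higher after sleep deprivation and 19 lower, with a median difference of 0.0326 percentage points. Of 31 small subunit genes, 10 were higher and 21 lower, with a median difference of -0.0690. The same lean appeared between the 2 control libraries, which share the DDD-seq control with this comparison. By ACE-seq 29 large subunit genes were higher and 17 lower, with a median difference of 0.0805, and 12 small subunit genes were higher and 19 lower, with a median difference of -0.0259. Of the other symbols, 8 of 14 were higher under sleep deprivation. Within 1.5-fold of the control lay 84 of 91 members.

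The comparison of ACE-seq with DDD-seq in control tissue asks how far the assays give the same level. It shares the DDD-seq control with the comparison above, so a chance low or high value there enters both. Of 91 members, 46 were higher (background 44.2%) and 45 lower by ACE-seq, with a median difference of 0.0123 percentage points and a mean of 0.0112 ± 0.265 (SD over genes), against a median of -0.0299 over other short genes. Past 1.5-fold, 3 members were higher by ACE-seq (3.30%), where 6.95% of other short genes were, and 3 lower (3.30%), where 9.26% were. Past 2-fold were 0 members, beside 2.71% and 3.18%. The assays thus differed for members by about as much as the sleep-deprived and control DDD-seq libraries did, with an SD over genes of 0.265 against 0.263.

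Rps27a, which is made as a fusion with ubiquitin, had 2.07% by ACE-seq and 1.31% by DDD-seq, a ratio of 1.58, and 1.16% in the sleep-deprived library. Rpl11, the partner of Rpl5 in binding Mdm2, had 1.93% and 1.21%, a ratio of 1.59. Both bins of Rpl11 were higher by ACE-seq, at 2.10% and 1.75% against 1.57% and 0.851%. Rps26, low in all libraries, had 1.004% and 0.633%. Of the lower genes, Rps23, a protein of the decoding center, had 0.907% by ACE-seq and 1.46% by DDD-seq, a ratio of 0.620. Rpl23 had 0.766% and 1.22%, a ratio of 0.628, and Rpl36 had 0.860% and 1.30%, a ratio of 0.660. For Rps27a, Rpl11, Rps23 and Rpl23 the DDD-seq libraries stood together and ACE-seq apart.

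**Figure D5:**
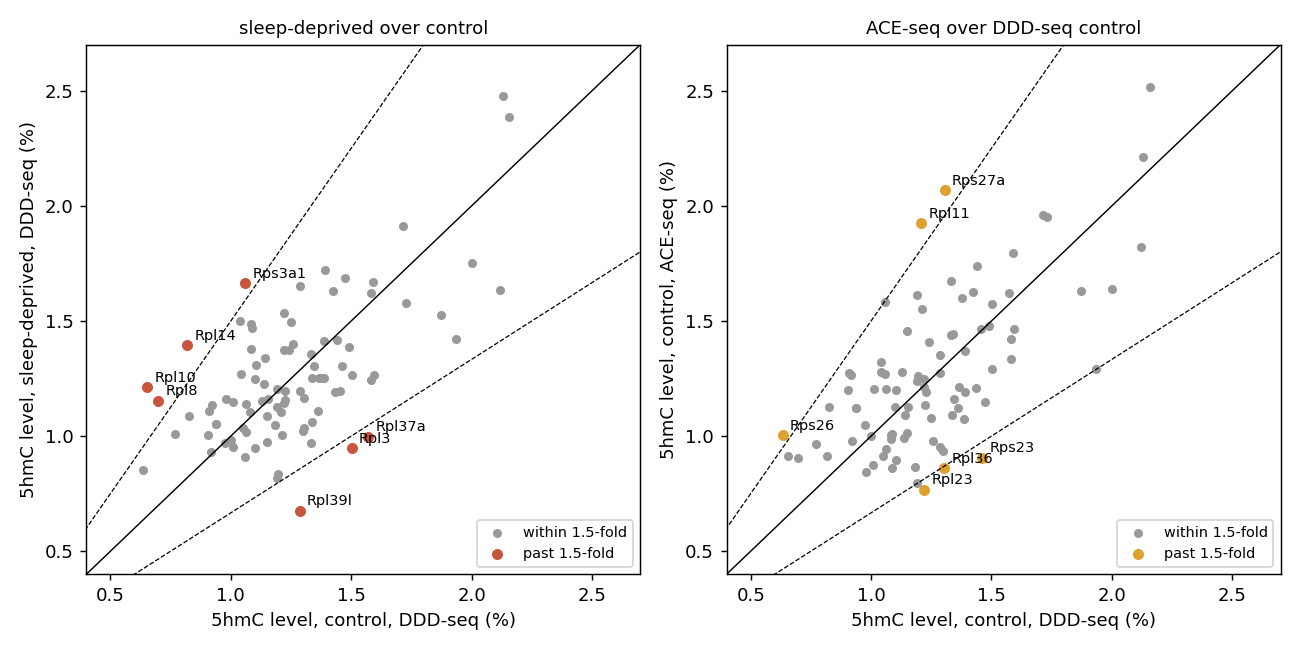
Level of 5hmC (percent) of the 91 genes under sleep deprivation (left) and by ACE-seq (right), each against the DDD-seq control. The solid line is equality and the dashed lines are 1.5-fold; 84 and 85 genes lie within them, and the named genes are those beyond.

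The rank order of the members was partly shared between libraries. Spearman's rho over the 91 genes was 0.51 between the sleep-deprived library and the DDD-seq control, 0.58 between the ACE-seq and DDD-seq controls, and 0.37 between the sleep-deprived and ACE-seq libraries. Other short genes gave 0.46, 0.46 and 0.45. The highest value of a gene fell in the sleep-deprived library for 29 members, in the ACE-seq control for 35 and in the DDD-seq control for 27. The lowest fell there for 32, 32 and 27 members in the same order. No such counts over other short genes stand beside these, so they are a description only.

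Other genes of protein synthesis and turnover were taken from lists by function, as a setting for the family. Over all protein-coding genes, 4.41% were higher and 5.97% lower past 1.5-fold by ACE-seq, and the shares for sleep deprivation are given above. The 78 genes of the mitochondrial ribosome had medians of 1.248% in the sleep-deprived library, 1.29% in the ACE-seq control and 1.26% in the DDD-seq control, with 4 higher and 4 lower past 1.5-fold under sleep deprivation and 3 higher and 2 lower by ACE-seq. Its subunit gene Mrps9 had 2.05 ± 0.30%, 2.10 ± 0.20% and 2.09 ± 0.28% (SE over 6 bins) and Mrps14 had 1.62%, 2.05% and 2.20%. The 56 translation initiation factors had 1.42%, 1.43% and 1.48%, with 1 higher and 1 lower under deprivation and 0 higher and 3 lower by ACE-seq. Among them Eif4a2, a helicase that unwinds the messenger, had 4.44%, 3.51% and 4.30%, above every member of the ribosomal protein family. The 20 elongation factors and their modifying enzymes had 1.31%, 1.34% and 1.40% and 0 past 1.5-fold in either comparison.

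The 69 ribosome biogenesis factors had medians of 1.30%, 1.31% and 1.27% in the sleep-deprived, ACE-seq control and DDD-seq control libraries, with Npm1, a nucleolar chaperone, at 2.31%, 2.92% and 2.73%. The 26 genes of mTOR and S6 kinase signalling had 1.44%, 1.42% and 1.44%, and the 39 proteasome genes, which break proteins down, 1.40%, 1.37% and 1.34%. Under deprivation 1 biogenesis factor was higher and 0 lower, 0 signalling genes passed 1.5-fold and 1 proteasome gene was lower. By ACE-seq 3 biogenesis factors were higher and 1 lower, 1 signalling gene was lower, and 3 proteasome genes were higher and 2 lower. These shares were near or under those of all genes or rested on few genes. The S6 kinase Rps6ka3 had 3.74 ± 0.49%, 3.45 ± 0.67% and 3.87 ± 0.58% (SE over 12 bins), against 1.63%, 1.82% and 2.12% for Rps6. The 5 subunits of RNA polymerase I, which transcribes ribosomal RNA, had 1.27%, 1.12% and 1.16% and 0 past 1.5-fold. Most of these lists hold longer genes than the ribosomal family, and over all their genes the medians of the lists named here, apart from RNA polymerase I, lay above it in all 3 libraries. Among their genes of 1 to 3 bins this did not hold throughout. The 13 such elongation genes had 1.18% in the ACE-seq control, the 9 of mTOR signalling 1.13% in the DDD-seq control and the 71 of the mitochondrial ribosome 1.22% in the DDD-seq control, against 1.21%, 1.22% and 1.22% for the family. Of ribosomal proteins under other symbols, Rack1, a scaffold on the small subunit, had 1.07%, 0.951% and 1.35%, and Fau, whose protein is cut to a small subunit protein, had 0.979%, 1.46% and 1.12%. Both lay within the range of the family in each library.

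The tissue was checked on marker lists for cell types of the cerebellum, as far as a DNA mark allows. The 10 markers of granule cells, the main neurons there, had medians of 1.53% in the sleep-deprived library, 1.66% in the ACE-seq control and 1.66% in the DDD-seq control, and 6 of 10 lay above the median of all coding genes in the DDD-seq control. The 5 microglial markers had 1.24%, 1.05% and 1.22%, with 2 of 5 above. The 6 Purkinje cell markers had 1.41%, 1.42% and 1.47%, the 6 oligodendrocyte markers 1.14%, 1.27% and 1.31%, the 6 astroglial markers 1.44%, 1.16% and 1.29% and the 5 endothelial markers 1.23%, 1.26% and 1.16%. The granule and Purkinje cell lists were thus higher than the ribosomal family in all 3 libraries, and the microglial list was above it in the sleep-deprived library, level with it in the DDD-seq control and below it in the ACE-seq control. In bulk tissue a shift in the cell types present and a shift of the mark within cells cannot be told apart.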

How the data were processed

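Genomic DNA of mouse cerebellum was profiled in 3 libraries, 1 per group, grouped by the treatment label and the title. The authors deposited a fraction per 10 kb bin and library. The column headers name trimming and Bismark, and the submitters' processing notes name FastQC, Trimmomatic and Bismark without versions. Those notes name hg19, but the bins run over the mouse chromosomes and end 1.33 to 211.9 kb after the last RefSeq gene of GRCm38.p6 on 21 chromosomes, so GRCm38 positions were used. How cytosines were averaged into a bin, their sequence context and any coverage minimum are not given in the sources used here, and depth is unknown, so no interval was set.

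Fractions were multiplied by 100. A gene's level was the mean over the bins it overlaps (Python 3.11.15, pandas 2.3.3), with RefSeq positions. Other protein-coding genes of 1 to 3 bins served for comparison. A call needed a ratio of 1.5-fold with both levels above 0. With 1 library per group no test was run. Genes were named by rule: the 10 highest and 10 lowest by the DDD-seq control, those past 1.5-fold, and up to 2 at each end of a pathway list. A few items are not reported here. Others named were chosen after their values were seen, as were the splits of genes of 1 bin by neighbours and by CG. The members and lists were chosen with earlier results of these data known. Alternatives were bin coverage of 1 kb, unshared bins, canonical symbols, autosomes, other folds and other comparison genes.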

Additional observations from a re-analysis of the deposited data

How the results depend on the processing

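Results were recomputed under 104 combinations of a result and an alternative; 77 moved by no more than the 0.0151 percentage points between the medians of the 2 control libraries (counts by no more than 1.5 times), and 27 moved by more. The sign of the gap between the family and other short genes depended on the genes compared: it was -0.0247 in the sleep-deprived library, 0.00759 in the ACE-seq control and -0.0126 in the DDD-seq control as reported, -0.116, -0.0848 and -0.107 against all other protein-coding genes, -0.00163, 0.0385 and 0.00996 against short genes with at least 4 neighbours, and 0.0420, 0.0589 and 0.0650 for genes of 1 bin, an alternative chosen after seeing the data. With only bins that hold no other protein-coding gene, which left 41 members, the median was 1.27% in the ACE-seq control and 1.29% in the DDD-seq control, and the gaps there were 0.0788 and 0.0622. In those bins the median difference was -0.0436 for sleep deprivation, with 1 gene higher past 1.5-fold, and 0.0502 for ACE-seq, with 1 gene lower. The median difference for sleep deprivation was 0.00927 over bins covered by at least 1 kb, and that for ACE-seq was 0.0288 without the 14 other symbols. At a looser limit, a ratio of 5 to 4, 13 members were higher and 13 lower under sleep deprivation, where 15.7% and 16.9% of other short genes were, and 16 were higher and 12 lower by ACE-seq, where 16.3% and 21.2% were. At 2-fold all 4 counts were 0. No paired analysis was possible because each group has 1 library. Causes of these shifts were not tested. Unknown depth limits single bins most, since 61 members rest on 1 bin.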

Other observations

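Processed copies of ribosomal protein genes are scattered through the genome. RefSeq lists 324 pseudogenes with their symbols on the chromosomes of the table. Their median level was 1.30% in the sleep-deprived library, 1.18% in the ACE-seq control and 1.28% in the DDD-seq control, against 1.23%, 1.19% and 1.22% for 9629 other pseudogenes. The 221 copies in bins with no protein-coding gene had 1.27%, 1.16% and 1.24%, against 1.18%, 1.14% and 1.16% for 6573 other pseudogenes in such bins. The 103 copies in bins with a protein-coding gene were lower than the 3056 other pseudogenes there, with 1.32%, 1.246% and 1.34% against 1.34%, 1.31% and 1.35%. The order of the medians thus differed between bins with and without a coding gene, but several gaps were small. With a coding gene the gaps in both DDD-seq libraries were near the 0.0151 points between the control medians of the family. So was the gap in the ACE-seq control without one. The control medians of the copies themselves were further apart than those of the family, at 1.18% by ACE-seq and 1.28% by DDD-seq. Whether the order differs between the kinds of bin was not tested.

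Rps12 and Rpl31 had the most copies, with 23 each. The copies of Rps12 had medians of 0.983%, 1.08% and 1.05% in the sleep-deprived, ACE-seq control and DDD-seq control libraries, and those of Rpl31 had 1.35%, 1.27% and 1.27%. The 15 copies of Rpl21 had 1.31%, 1.29% and 1.40%, below the 2.39%, 2.51% and 2.16% of Rpl21 itself. Some copies exceeded every coding member, such as Rpl27a-ps4 on chromosome 13 with 3.87%, 4.19% and 4.84%.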
